A study of Drosophila melanogaster with 2 samples.

Results

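The remote peaks are the places in the embryonic genome where the co-activator CBP was found with no second listed peak within 50 kb on either side. They were chosen from the deposited list of CBP peaks by spacing alone. For each peak on the 5 large arms (X and both arms of chromosomes 2 and 3) and on chromosome 4, the number of bases to the nearest other peak on the same arm was taken, from edge to edge, and peaks with more than 50 kb were kept. The rule found 287 remote peaks among the 1326 peaks of the main arms, in a list of 1347 in all. They made up 21.6% of the arm peaks and covered 188425 of the 913296 bp under arm peaks, or 20.6%.

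CBP (CREB-binding protein, encoded in the fly by nejire) is a histone acetyltransferase. It does not read DNA sequence itself but is brought to enhancers and promoters by transcription factors, and it acetylates histone H3 there, including lysines of the H3 tail that mark active regulatory DNA. In the early fly embryo it is known as a partner of factors that pattern the body axes, among them Dorsal and the Smad protein Mad. Many genes of early patterning are served by several enhancers spread around the gene. A CBP peak with no listed neighbour over a long stretch therefore has a different setting from the peaks that lie in groups, and it may be an enhancer, a promoter or another kind of site.

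The series measured CBP binding by chromatin immunoprecipitation and sequencing (ChIP-seq) in whole Drosophila melanogaster embryos aged 0 to 4 h, a period that runs from the early nuclear divisions past the onset of zygotic transcription. The 2 samples are a CBP ChIP, made with an antibody named rbCBP, and a chromatin input. Both were untreated, both carry replicate number 1, and the labels do not say whether the flies were iso1 (y; bw cn sp) or a transgenic line. The peak list belongs to the ChIP sample, so no value below has a replicate error, and binding in 1 cell type of the embryo cannot be told apart from binding in all of them. Read depth is unknown, because the list gives no read counts. The intervals in brackets are 95% intervals (exact binomial for shares, order statistics for medians). They treat peaks as independent and cover only how many peaks were counted.

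Distance and score come from the same peak call, and the distance chose the members. All values are therefore given as a description, with no test. The score is the authors' own value for each peak, used only to rank and describe peaks within the list, and its lower end was 50.02. Positions are on BDGP5 and count from 1. Genes at the peaks are not named and no sequence is shown, because neither an annotation nor a genome of that build was used here.

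The remote peaks were not the strongest CBP sites of the embryo, but they were not the weakest either. Their score had a median of 67.51 (64.54 to 70.08), quartiles of 56.31 and 84.6 and extremes of 50.09 and 359.08. The other 1039 arm peaks had a median of 68.32 (66.83 to 70.11). The centres of both groups thus lay within each other's intervals. Scores under 60, next to the lower limit of the list, were held by 96 remote peaks, or 33.4% (28.0 to 39.2), and by 33.3% of the other arm peaks.

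The upper part of the score range was thinner among them. A score of at least 100 was reached by 40 of the 287 remote peaks, or 13.9% (10.1 to 18.5), where the share over all arm peaks was 20.9%. Among the other arm peaks it was 22.8% (20.3 to 25.5). The remote peaks were more numerous in the middle of the range, with 106 peaks, or 36.9%, between 60 and 80, against 29.9% of the others. A score of at least 200 was reached by 4 remote peaks (1.39%) and by 38 of the other peaks (3.66%).

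**Figure D1:**
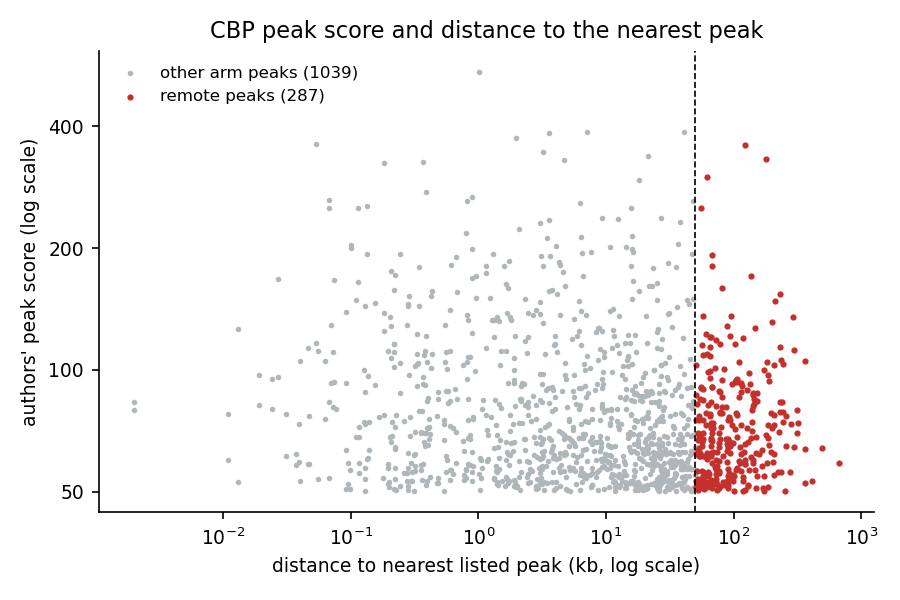
Authors' peak score (log axis) against the distance in kb to the nearest listed peak (log axis), 1 point for each of the 1326 arm peaks. The 287 remote peaks lie to the right of the dashed line at 50 kb, and 4 of them score at least 200.

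The other arm peaks fall into 3 classes of spacing: single peaks with a neighbour at 5 to 50 kb, pairs and clusters. The 546 single peaks had a median score of 65.42 (63.49 to 67.63), and 17.2% (14.1 to 20.6) reached 100. The 280 peaks in pairs within 5 kb had a median of 69.6 (65.69 to 74.22), and 24.6% (19.7 to 30.1) reached 100. The 213 peaks in clusters of 3 or more had a median of 79.25 (73.33 to 88.87), and 34.7% (28.4 to 41.5) reached 100. The share reaching 100 was thus lowest for the remote peaks and highest for the clusters, and the intervals of remote and single peaks overlap.

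Remote peaks were also narrower in the median than pairs and clusters, while their interval overlaps that of single peaks. Their median width was 574 bp (543 to 611), the middle part of them measured 444.5 to 786.5 bp (quartiles), and the extremes were 275 and 2779 bp. For the other 1039 arm peaks together the median was 640 bp (622 to 658), an interval that does not overlap that of the remote peaks. The median was 587 bp (560 to 622) for single peaks, 648.5 bp (621 to 679) for pairs and 719 bp (681 to 772) for clusters. Broad regions took a similar share among remote and other arm peaks: 38 remote peaks (13.2%) and 140 of the others (13.5%) were wider than 1000 bp. By class the share was 10.4% for single peaks, 13.2% for pairs and 21.6% for clusters.

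Width rises with score in this list, so widths were also set side by side within bands of score. Between 50 and 60, the median width was 491.5 bp (453 to 548) for remote peaks and 502.5 bp (477 to 524) for the others. Between 60 and 80 the medians were 546.5 bp (504 to 589) and 619 bp (582 to 641). From 80 to 100 they were 674 bp (593 to 827) and 712 bp (681 to 758), and from 100 upwards 784 bp (673 to 997) and 867 bp (823 to 921). The remote peaks had the smaller median in each of the 4 bands, and the intervals of the 2 groups overlap in each. Across the 287 remote peaks, width and score had a Spearman's rho of 0.38, against 0.518 across the other 1039, where both measures of a peak come from the same reads.

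**Figure D2:**
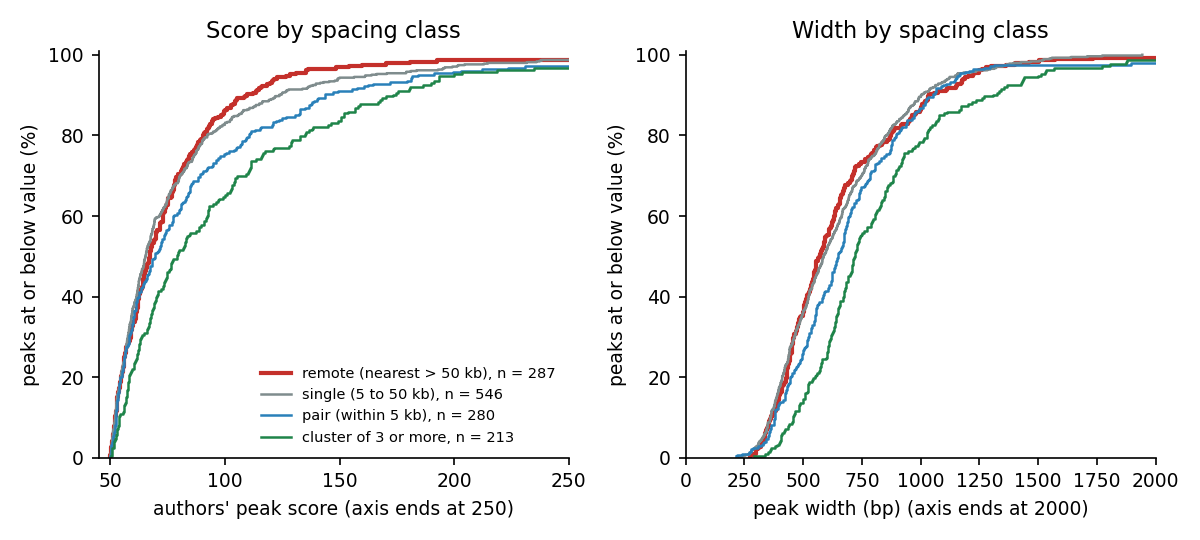
Cumulative share of peaks (%) by score (left, axis ends at 250) and by width in bp (right, axis ends at 2000) for the 4 classes of spacing. The curve of the 287 remote peaks runs beside that of the 546 single peaks, and the curve of the 213 clustered peaks lies to the right in both panels.

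Remote peaks made up 21.6% of all arm peaks and a smaller share of the highest-scoring ones. Of the 20 highest-scoring arm peaks 3 were remote (15%, 3.21 to 37.9), with an interval that holds 21.6%. Of the 100 highest 9 were remote (9%, 4.20 to 16.4). Of the 331 lowest 77 were remote (23.3%, 18.8 to 28.2), near the share over all arm peaks. The strongest remote peak spanned 3L from 13371164 to 13372238, had a score of 359.08 over 1075 bp, and ranked 7 among all arm peaks. The stretches beside it were empty over 203 and 123 kb, and the next peaks on both sides were themselves remote, with scores of 55.43 and 58.52.

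The second lay on the same arm, from 15501841 to 15503018, and its 1178 bp had a score of 333.13. It was separated by 179 kb from a remote peak of score 77.37 and by 201 kb from a pair. The third, on 3R from 26737820 to 26738973, scored 299.87 over 1154 bp and had its nearest neighbour, a single peak of score 120.09, at 61.8 kb. On its other side, 148 kb away, lay the narrowest of all remote peaks, from 26887107 to 26887381, with 275 bp and a score of 98.43. A peak of 719 bp on 2L from 1517740 to 1518458 had the fourth score, 251.58, between peaks of 59.66 and 60.78. These lay 55.6 and 136 kb away.

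After these 4 the scores dropped. The next was 192.37, on 3R from 10643277 to 10644679, a peak of 1403 bp with neighbours at 68.0 and 70.8 kb. A further 3R peak, from 20411993 to 20412701, scored 180.94 and lay 288 kb from the peak before it and 68.1 kb from the next. The X had its strongest remote peak from 5795697 to 5796355 (score 170.17, 659 bp), with 136 kb empty before it and 323 kb after it. On 2R the strongest, 915 bp from 7681503 to 7682417, scored 159.69. Strong remote peaks were thus found on each of the large arms, with the 2 highest on 3L.

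The other 7 of the 15 highest-scoring remote peaks had scores between 128.34 and 153.98. Arm 3L held the peak from 11685908 to 11686580 (score 153.98), beside which 335 and 231 kb were empty, and that from 22058850 to 22060214 (score 136.21). Arm 2R held those from 16214687 to 16216421 (score 148.29) and from 19467963 to 19468959 (score 135.55). Arm 3R held those from 23755730 to 23758508 (score 135.3) and from 25596470 to 25597032 (score 131.1). The last was the X peak from 20987974 to 20988305, which reached 128.34 over only 332 bp. Only the 2R peak from 16214687, among the 15, had a neighbour of higher score than its own: the peak 210 kb away had 262.14.

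The widest CBP peak of the main arms was a remote one. It is the 3R peak from 23755730 to 23758508, with 2779 bp, a score of 135.3 and empty stretches of 293 and 403 kb. The second widest remote peak, on 3R from 8207248 to 8209403, covered 2156 bp with a score of 74.2 and followed an empty stretch of 602 kb. The third, with 1735 bp, is the 2R peak from 16214687 already described. A 3L peak from 1638737 to 1640307 covered 1571 bp and a 3R peak from 5455334 to 5456838 covered 1505 bp, with scores of 94.76 and 65.87. In this group of 5, 2 peaks reached a score of 100 and 3 did not, where the share over all remote peaks was 13.9%.

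At the other end, the 5 narrowest remote peaks had 275 to 298 bp and scores of 56.25 to 98.43. Apart from the 3R peak named above, they lay on X from 21883709 to 21883988 and from 15033247 to 15033544, and on 2R from 4197404 to 4197691 and from 13084159 to 13084456.

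The distance to the nearest peak ranged from 50.254 to 666.978 kb among the remote peaks, with a median of 88.8 kb (79.4 to 95.9). Over all 1326 arm peaks the median was 12.4 kb. Distances of 50 to 75 kb were held by 112 remote peaks (39.0%), while 121 (42.2%) lay more than 100 kb and 37 (12.9%) more than 200 kb from their nearest listed peak. The rule sets a limit in a range where peaks were continuous. The 5 members next to the limit had nearest distances of 50.254 kb (2R from 2810588), 50.278 kb (2R from 4788219), 50.668 kb (neighbours on 3L, from 1410273 and from 1461489) and 50.927 kb (3L from 4625758). Their scores were 86.84, 75.33, 51.23, 62 and 102.83. The 5 peaks left out by the smallest margin had nearest distances of 49.456 kb (3R from 1376060), 49.423 kb (2L from 20820297), 48.993 kb (neighbours on X, from 6588527 and from 6638058) and 48.033 kb (3R from 5754188). Scores of 64.43, 55.03, 56.94, 62.96 and 82.32 belonged to these.

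The most distant peaks were of ordinary score. The peak with the largest nearest distance was the last one listed on X, from 21883709, at 667 kb from its only neighbour, with a score of 58.98 over 280 bp. It was followed by the first listed peak of 2R, from 1541152 to 1541595 (488 kb, score 63.91), and by the first of chromosome 4, from 79502 to 79911 (414 kb, score 53.06, 410 bp). These 3 have a listed peak on 1 side only. The chromosome 4 peak was the only remote one among the 3 peaks of that chromosome.

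With neighbours on both sides, the largest distance was that of a 2L peak from 17748512 to 17749167, with 364 kb before it and 392.3 kb after it and a score of 104.98. Next came a 3L peak from 9848719 to 9849082 (363 kb, score 52.61), and X peaks from 4941895 to 4942472 (359 kb, score 63.72) and from 7631222 to 7632181 (318 kb, score 73.82). On 3R, peaks from 8806660 to 8807142 and from 14503537 to 14504174 lay 312 and 311 kb from their nearest neighbours, with scores of 79.42 and 69.89. The tenth was on 3L from 7130661 to 7131623, at 297 kb and with a score of 112.14. Of these 10 peaks, 2 reached a score of 100, where the share over all remote peaks was 13.9%.

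Score differed little with distance among the remote peaks. The median was 65.6 (61.37 to 69.84) at 50 to 75 kb, 65.82 (61.07 to 73.16) at 75 to 100 kb and 68.32 (61.76 to 79.56) at 100 to 150 kb. It was 67.71 (58.9 to 87.78) in the 23 peaks at 150 to 200 kb and 73.41 (64.54 to 78.66) in the 37 beyond 200 kb. These intervals overlap. A score of at least 100 was reached by 14.3% (8.39 to 22.2) in the nearest group and by 24.3% (11.8 to 41.2) in the farthest, again with overlapping intervals. Spearman's rho of score and nearest distance was 0.103 across the 287 remote peaks and -0.138 across all 1326 arm peaks, with neighbouring peaks sharing distances.

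The empty stretches on the left and right of a remote peak were often of unequal length. For the 278 remote peaks with a neighbour on both sides, the 2 stretches added up to a median of 331.6 kb (296 to 353), with extremes of 111 and 1107 kb. The longer was 2.05 times the shorter in the median, at least 2 times in 142 peaks and at least 5 times in 25. The left one was longer in 131 peaks and the right one in 147. Left and right lengths had a rho of -0.0176 across these 278 peaks.

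**Figure D3:**
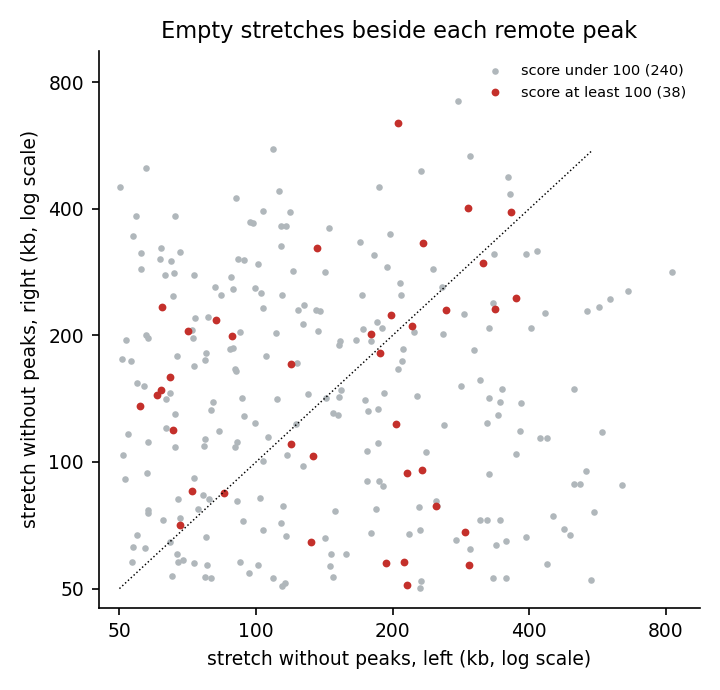
Length in kb of the stretch without listed peaks on the left and on the right (log axes) of the 278 remote peaks with a neighbour on both sides. The 38 peaks with a score of at least 100 (red) are scattered among the 240 others, and points lie on both sides of the dotted line of equal length.

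Of the 565 neighbouring positions beside remote peaks, 274 (48.5%) held another remote peak, 193 (34.2%) a single peak, 64 (11.3%) a peak of a pair and 34 (6.02%) a peak of a cluster. A neighbour of a remote peak already has 1 gap above 50 kb, and 43.9% of all 1320 gaps between arm peaks exceed 50 kb, so a share of remote neighbours near this level comes with the rule. A remote neighbour on both sides was found for 63 remote peaks, on 1 side for 148 and on neither for 76. In all, the stretches that border at least 1 remote peak summed to 77.8 Mb, or 68.3% of the 114 Mb between the first and last peaks of the arms. A stretch over 50 kb on both sides is what the rule asks, so these lengths describe the members and are not a separate result. The score of a remote peak and that of its nearest neighbour had a rho of 0.0986 over the 287 peaks, and the remote peak was the higher of the 2 in 149 cases and the lower in 138.

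The longest run held 10 consecutive remote peaks on X from 13535958 to 15378994, over 1.84 Mb. Their scores ranged from 52.04 to 102.63 and their widths from 298 to 648 bp. Within this run lies an empty stretch of 640 kb, from 13909195 to 14548928, which has the highest-scoring peak of the run (102.63) on its left and the lowest (52.04) on its right. A run of 8 spanned 3L from 871568 to 1942227, with scores of 51.23 to 94.76 and widths up to 1571 bp, and a run of 7 spanned 3R from 18312744 to 19556293, with scores of 50.46 to 70.61. The X and 3R runs held narrow to medium peaks only, while the 3L run held 3 peaks wider than 1000 bp. There were 4 runs of 5, 4 of 4, 24 of 3 and 39 of 2.

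Remote peaks were also counted in fixed windows of 1 Mb. The window of 3L from 1000001 to 2000000 held 7 peaks, all remote, and the first window of 3L held 10 peaks, of which 6 were remote. No other window had more than 5 remote peaks. In 7 windows every listed peak was remote, among them the X window from 14000001 with 4 peaks and the 3L window from 7000001 with 3. Also among them are the 2L window from 22000001 and the 2R windows from 1000001 and from 21000001. Each of these holds only 1 peak, the first or last listed on its arm, with a neighbour on 1 side only. Of the 119 windows, 113 held at least 1 remote peak.

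By arm, at the limit of 50 kb, remote peaks made up a larger part of the CBP peaks on the X than elsewhere. On the X, 63 of 187 peaks were remote, or 33.7% (27.0 to 40.9). Arms 3L and 2L had shares of 23.1% (18.1 to 28.8) and 20.7% (15.8 to 26.3). Arms 2R and 3R had shares of 18.2% (13.9 to 23.3) and 17.5% (13.7 to 21.8). Among the large arms, the interval of the X overlaps that of 3L only. The X had 8.74 peaks per Mb of span and the other large arms 11.1 to 14.001, and in a sparse arm more peaks are left without a close neighbour by the rule itself.

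Counted per Mb, the arms were closer to each other. Remote peaks had a density of 2.94 per Mb of span on X, 2.58 on 3L, 2.55 on 2R, 2.33 on 2L and 2.28 on 3R. The density of all other peaks ranged more widely, from 5.79 per Mb on X to 11.4 on 2R. The X thus had the highest density of remote peaks and, among the large arms, the lowest of the others.

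**Figure D4:**
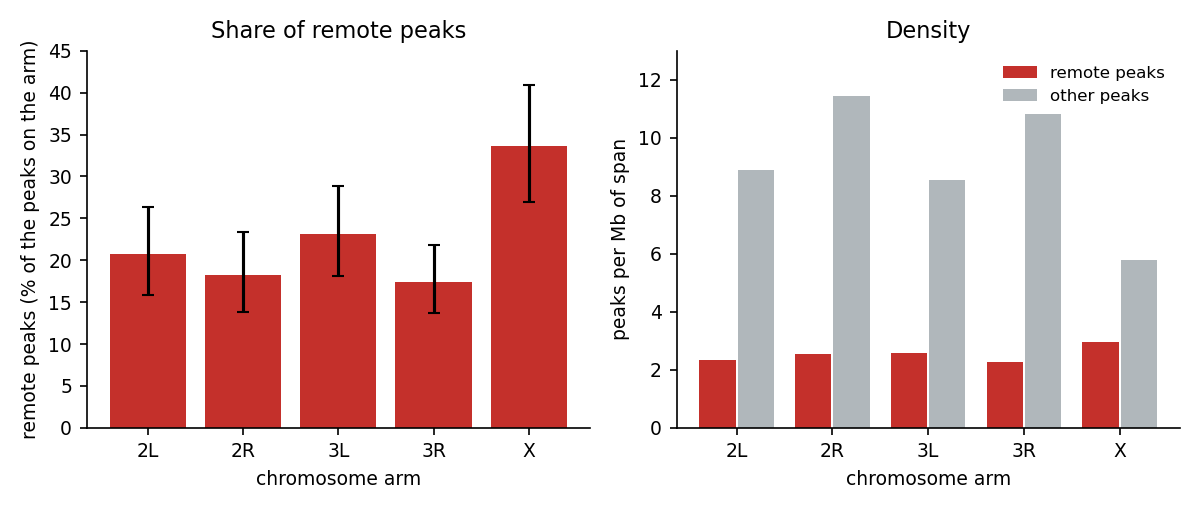
Left, remote peaks as a percentage of the CBP peaks on each large arm, with exact binomial 95% intervals. Right, remote peaks (red) and all other peaks (grey) per Mb of span: remote peaks lie between 2.28 and 2.94 per Mb on all 5 arms, other peaks between 5.79 and 11.4.

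On 2L, 12 of 51 remote peaks reached a score of 100, or 23.5%, where the other 2L peaks gave 20.5%. On the other large arms the shares of remote and other peaks were 16.9% against 27.6% on 3L, 12.0% against 25.4% on 2R, 9.52% against 18.5% on 3R and 9.52% against 25% on X. These shares rest on 6 to 12 remote peaks per arm, and a difference between arms was not tested. Median scores of remote peaks were 71.68 for 3L, 69.94 for 2L, 67.87 for 3R, 64.85 for X and 63.6 for 2R, and their intervals overlap. Among the large arms, the X had the lowest median width of remote peaks, 474 bp (434 to 542). On the others the medians were 574 to 631 bp, and the other X peaks had 587 bp.

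Along the arms, remote peaks were present from the telomere side to the centromere side. When the span of each large arm was divided into 5 equal parts, the share of remote peaks was 25.9% (20.6 to 31.7) in the part nearest the telomere. The following parts gave 21.4%, 25.1% and 18.3%, and the part nearest the centromere 18.5% (14.3 to 23.2). Single arms departed from this. The fourth part of X, counted from the telomere, had 17 remote peaks of 26, or 65.4% (44.3 to 82.8), and holds the run of 10. The third part of 3L had 15 of 33 (45.5%, 28.1 to 63.6), the third part of X 15 of 39 (38.5%, 23.4 to 55.4) and the first part of 3L 17 of 48 (35.4%, 22.2 to 50.5). The lowest share was that of the fourth part of 2L, with 4 of 42 (9.52%, 2.66 to 22.6). These parts were picked out after their values were seen. In the order named, they had 6.07, 7.21, 9.11, 10.5 and 9.58 peaks per Mb of span. Over all large arms, the 5 parts had 10.7 to 13.8. By the rule itself, more peaks are left without a close neighbour in a sparse part. The second part of 3L, also with 7.21 peaks per Mb, had a share of 21.2%.

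The ends of the listed spans were often occupied by remote peaks. On the 6 arms, 9 of the 12 first and last peaks met the rule, each with 1 neighbour to satisfy in place of 2. The highest-scoring of the 9 were the last peak of 2R, from 21110343 to 21111063 (score 126.6), and the last of 3L, from 22938345 to 22939137 (score 120.43). The first peak of 3R is listed with a start of -61 and an end of 1087, so it begins before the first base of the arm as listed. It had a score of 76.77 and its neighbour was 258 kb away.

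Whether a peak counts as remote rests on which weaker peaks are in the list. When only peaks with a score of at least 100 were kept, 164 of 277 (59.2%) had no neighbour within 50 kb. Of these, 40 were remote in the full list as well, and the other 124 had only weaker peaks within 50 kb. At a minimum of 60, 282 of 884 peaks were remote, 191 of them remote in the full list too. At a minimum of 200, 35 of 42 were remote, and 4 of these belong to the 287. Leaving out peaks can only lengthen distances, so the rising share follows from the filter and says nothing of strong peaks as such. A peak cannot lose its remote position when others are removed, so every member above the limit stayed one.

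**Figure D5:**
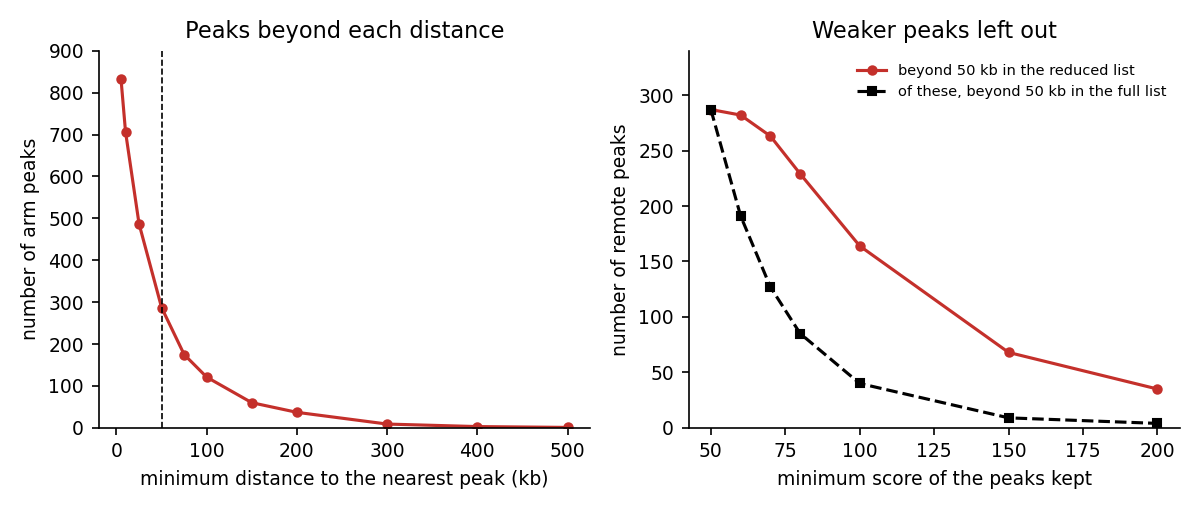
Left, number of arm peaks whose nearest listed peak lies beyond each distance in kb, with 287 at the dashed line of 50 kb and 121 at 100 kb. Right, number of remote peaks when only peaks above a minimum score are kept (red) and the part of them that is remote in the full list (black), 164 and 40 at a minimum of 100.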

How the data were processed

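The deposited file lists CBP peaks of 1 ChIP sample, with start, end and the authors' score for each peak. Per the file headers, peaks were called with MACS. The submitters' processing notes name Bowtie and the build BDGP5. Versions, thresholds, the use of the input and any pooling of replicates were not given in the sources used here. The threshold of the peak call bears on every distance, since a weaker peak below it would count as a neighbour.

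Spacing, classes, shares and medians were computed from the list with pandas 2.3.3, scipy 1.17.1 and numpy 2.4.6 under Python 3.11.15. Figures were drawn in matplotlib 3.10.9. The rule for remote peaks was checked on simulated data with planted remote peaks, and the single, pair and cluster classes were not checked in this way. Peaks within 5 kb of each other formed pairs or clusters. Named peaks are the 15 remote peaks with the highest score, the 10 most distant, the 5 widest, the 5 narrowest, the highest of each arm, that of chromosome 4, and the 5 on either side of 50 kb. Runs and windows were named by size, after their values were seen. Members and lists were chosen with earlier results of these data known. Planned comparisons with genes and motifs were not run, because the available gene table belongs to Release 6. Coordinates were not converted.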

Additional observations from a re-analysis of the deposited data

Results flagged for a closer look

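Peaks outside the 6 main arms are given here because they hold signal that the account above does not use. Of the 21 such peaks, 13 had their nearest other peak on the same sequence more than 50 kb away, and 2 were alone on their sequence. With no control values at hand, they are listed here only because 13 exceeds the 3 that a count of 0 allows, which does not show that 13 of 21 is unusual on these sequences. They comprised all 8 peaks of Uextra, 1 of the 7 of U, and 4 on the heterochromatic sequences 2RHet and 3LHet. Their scores ranged from 53.04 to 617.96, with a median of 95.54, and their widths from 291 to 643 bp, with a median of 391 bp. Uextra is a collection of unplaced pieces, so distance along it is not distance on a chromosome.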

How the results depend on the processing

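No paired analysis was possible because the ChIP and the input are single samples, and for the same reason no replicate could be left out. Of the 50 values obtained under other settings, 37 lay within 1.5 times the main count or within the main 95% interval. The interval covers only how many peaks were counted, and the settings re-cut the same list. The 37 are therefore a tally and no test of stability. All values for centre-to-centre distance, for peaks within 500 bp joined and for peaks with a neighbour on both sides were among the 37, with 287, 305 and 278 remote peaks in place of 287. Centre-to-centre distance and joining kept all 287 members, and the last setting kept 278 of them. The closeness of these values was thus largely fixed in advance. With a limit of 25 kb there were 487 remote peaks at a median nearest distance of 57.7 kb. With 100 kb there were 121 remote peaks, with a median distance of 149 kb, a median score of 70.61 and a median width of 631 bp. A list without the arm peaks that score under their median gave 269 remote peaks, 136 of them members of the full list. Their median score was 89.06, their median width 705 bp and their median distance 133 kb, and 35.3% reached a score of 100. The X then held 17.1% of the remote peaks in place of 22.0%, and chromosome 4 held 0%. The filter itself raises the scores. A minimum score of 100, added after seeing the data, left 164 remote peaks. The other 16 of 18 shares by arm stayed within their intervals. Among them was the share of X, which fell to 18.1% at 25 kb and 18.2% at 100 kb. Of all arm peaks, 14.1% lay on X. Read depth is unknown, so which weak neighbours went unlisted cannot be told.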
